A study of Mus musculus with 18 samples.

Results

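The LIF-STAT3 pathway genes examined here were Lifr, Il6st, Jak1, Stat3, Socs3, Bcl3, Pim1 and Pim3. They were chosen by name, as the rows of the gene table and of the PROMPT table that carry these symbols, and all 8 were found, as 8 of 21859 genes and as 8 of 32253 PROMPTs. PROMPTs (promoter upstream transcripts) are short antisense RNAs that start near a gene's promoter and run away from it. The authors placed them within 1 kb upstream of a transcription start site, on the opposite strand.

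The data were TT-seq, a nascent RNA assay in which cells are fed 4-thiouridine (4sU) for 5 min and only the RNA made during the pulse is purified and sequenced. The cells were E14 mouse embryonic stem (ES) cells that carried the plant F-box protein osTIR1, which marks AID-tagged proteins for degradation once auxin is added. The backgrounds were the untagged parent and 2 homozygous clones, SPT16_AID_V5 Clone1 and Clone2, in which the endogenous Supt16 gene ends in an AID and V5 tag. SPT16 is a subunit of the histone chaperone FACT. Each background received 0.1% EtOH or 3-IAA, an auxin, for 24 h, which made 6 groups of 3 libraries, 18 libraries in all. All groups carried osTIR1 and grew in medium with serum, LIF at 1000 U/mL, CHIR99021 at 3 µM and a MEK inhibitor at 1 µM, so no group lacked LIF. The labels give 3-IAA at 500 nM, and the study's methods give the same figure in µM. The study counts the 2 clones as biological replicates and repeats of a sample as technical ones.

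LIF is a cytokine that holds mouse ES cells in self-renewal. It joins the receptor chains LIFR and gp130 (encoded by Il6st), the kinase JAK1 bound to their tails phosphorylates STAT3, and STAT3 dimers enter the nucleus and bind DNA. Socs3 is a direct STAT3 target whose product blocks the receptor and kinase, closing a feedback loop. Bcl3 encodes an IkB family coregulator, and Pim1 and Pim3 encode serine/threonine kinases. These genes are known targets of the pathway in ES cells.

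The values used were the authors' means over all 18 libraries (baseMean, the mean of read counts divided by each library's size factor), so that SPT16-depleted and control libraries are averaged together in every number. A mean of this kind has no SD and no n of its own. The conditions were therefore not compared here, and no statement below concerns the effect of SPT16 depletion. The values describe how strongly the 8 genes and their upstream antisense strands were transcribed in this mixture of libraries.

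All 8 genes were transcribed above the median gene. Dividing the baseMean by the length of the gene span in kb gave 38.9 for the median gene, taken over the 17664 that had an annotated span and a baseMean of 1 or more, and the 8 genes lay between 67.3 and 511. Their median was 263. Together they held 0.0931% of the summed gene baseMean. Of the 8 genes, 4 lay in the top 10% of genes by this scale, which began at 257 per kb. This count depends on the length used. Per kb of exons the highest of the 8 was Bcl3, at the 85.7th percentile, so that none was in the top 10%. With no division by length, those in it were Il6st, Lifr and Stat3, at the 94.8th, 93.1st and 90.4th percentiles.

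Among the receptor chains, Il6st was the higher. Il6st (ENSMUSG00000021756, chr13:112464070-112510086, plus strand, GRCm38) encodes gp130, the signalling chain shared by the whole IL-6 cytokine family. Its baseMean of 14037 was the highest of the 8, and over a span of 46017 bases it came to 305 per kb, at the 92.4th percentile of genes. Lifr (ENSMUSG00000054263, chr15:7090614-7197489, plus strand) encodes the chain that binds LIF itself. Its baseMean was 11886, but its span of 106876 bases brought it to 111 per kb, at the 70.1st percentile. The level of Il6st was thus 2.74 times that of Lifr per kb of span. That ratio holds for the Gencode span of Lifr. RefSeq places the Lifr starts 38958 and 49928 bases downstream, and the same baseMean over a span from there would give a higher level per kb. Per kb of exons the chains differed less, with 1265 for Il6st and 1103 for Lifr, a ratio of 1.15.

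Jak1 stood lowest of the 8 per kb of span. Jak1 (ENSMUSG00000028530, chr4:101152367-101265282, minus strand) encodes the receptor-bound kinase and had a baseMean of 7595, or 67.3 per kb, at the 58.8th percentile. It is also the longest, at 112916 bases, of which exons make up 6.40%. Per kb of exons its level was 1051, at the 81.9th percentile of genes on that scale. A processed pseudogene, Gm12785, lies within Jak1 on the same strand over 172 bases, and reads from it could not be told apart from those of Jak1.

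Stat3 (ENSMUSG00000004040, chr11:100885098-100939540, minus strand), the transcription factor of the pathway, had a baseMean of 9301. This was 171 per kb of span, at the 81.2nd percentile, and 976 per kb of exons, at the 80.4th. Its place among genes hardly differed between these lengths, but with no division by length it was at the 90.4th percentile. Per kb of span it was transcribed at 2.54 times the level of Jak1. Its far end overlaps Stat5a, on the opposite strand, by 72 bases, and the authors counted by strand.

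The inhibitor and the kinase targets were the shortest genes and the highest per kb of span. Socs3 (ENSMUSG00000053113, chr11:117966079-117970047, minus strand) had a baseMean of 1660, the lowest of the 8, yet 418 per kb over its 3969 bases, at the 95.6th percentile. Pim1 (ENSMUSG00000024014, chr17:29490753-29496112, plus strand) had a baseMean of 2737 and the highest level per kb of span of the 8, 511, at the 96.8th percentile. Pim3 (ENSMUSG00000035828, chr15:88862186-88865726, plus strand) had a baseMean of 1673 and 472 per kb, at the 96.4th percentile. These 3 genes are mostly exon, with exons covering 72.8% of Socs3, 68.5% of Pim3 and 62.7% of Pim1. Bcl3 (ENSMUSG00000053175, chr7:19808462-19822770, minus strand) is longer and mostly intron, with 17.3% of its bases in exons. Its baseMean of 3158 gave 221 per kb, at the 87.1st percentile.

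**Figure D1:**
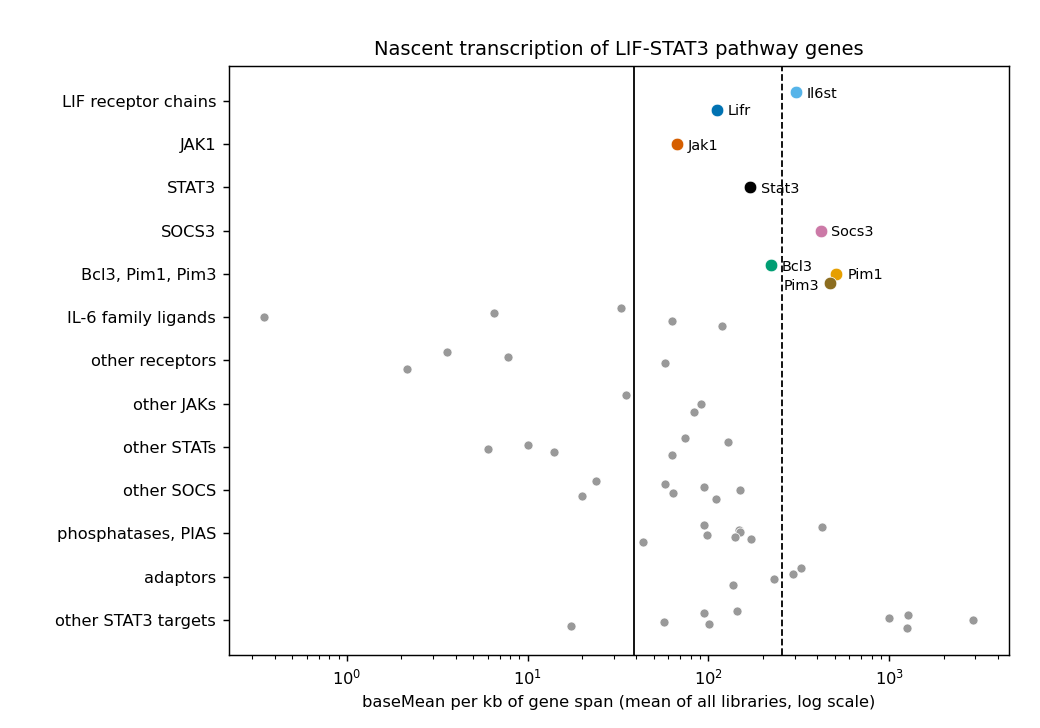
Nascent transcription level by role, as baseMean per kb of gene span on a log axis, each point 1 gene and the mean of all 18 libraries; coloured points are the 8 genes and grey points the other pathway genes at a baseMean of 1 or more. The solid line marks the median gene (38.9) and the dashed line the start of the top 10% (257); all 8 coloured points lie to the right of the solid line.

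The order of the 8 genes turned over with the length used as divisor. Per kb of Gencode span it was Pim1, Pim3, Socs3, Il6st, Bcl3, Stat3, Lifr and Jak1, with 7.59 times between the ends. The place of Lifr in this order depends on which annotated start is taken. Per kb of exons it was Bcl3, Il6st, Lifr, Jak1, Stat3, Pim1, Pim3 and Socs3, with 2.22 times between the ends. No gene kept its place. The sources used here do not say whether the authors counted reads over whole gene spans or over exons alone. If over spans, the first order is the one per length, and if over exons, the second. By either scale all 8 genes lay above the median gene, which was 207 per kb of exons, and the lowest percentile was that of Jak1 by span and that of Socs3 by exons (69.2). Neighbours in either order could not be separated from each other by a spread over samples, since the pooled values give none.

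**Figure D2:**
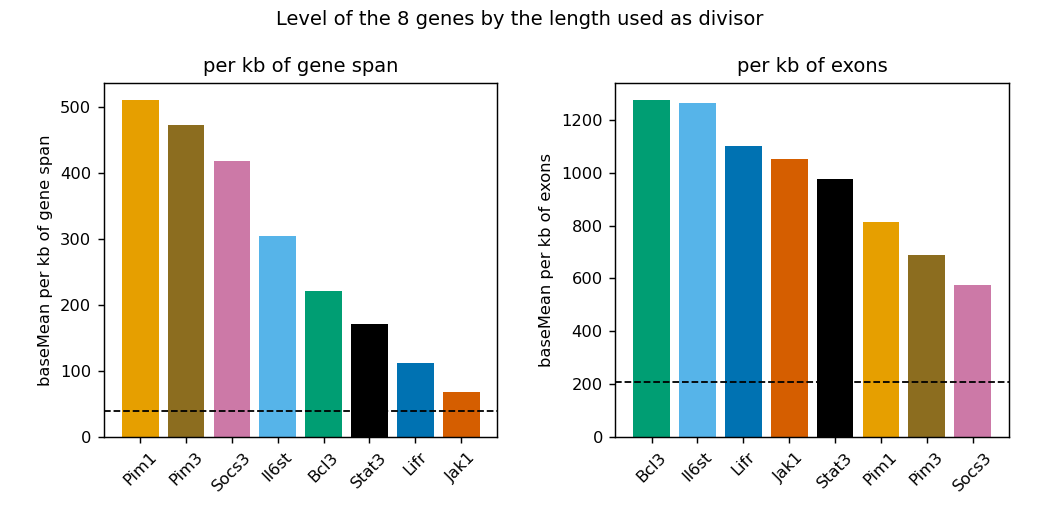
baseMean of the 8 genes per kb of gene span (left) and per kb of exons (right), sorted from high to low within each panel; each bar is the mean of all 18 libraries, with no error since the value is pooled. The dashed line is the median gene (38.9 left, 207 right); Pim1, Pim3 and Socs3 are highest on the left and lowest on the right.

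The depth behind the gene values was high. In each table, the values of features with a single read pair in a single library form a set of 18 lowest steps, 1 per library, and these ran from 0.0216 to 0.115 in the gene table. They bound the number of read pairs behind any value. Socs3, the lowest of the 8 by baseMean, rested on at least 14401 read pairs and Il6st on at least 121808, so that the SD from counting was at most 0.833% of any of the 8 values. This covers counting error only, and amplified copies of a molecule are counted as separate reads. The steps also show that the size factors of the 18 libraries spanned 5.34-fold in this table, although which library had which factor is not known from these values. Between 93.0% (Pim1) and 100% (Pim3 and Socs3) of the 50-base windows of each gene occur once in the genome.

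The rest of the pathway was transcribed more unevenly than the 8 genes. Of 48 other pathway genes listed by role, 46 had a baseMean of 1 or more and 33 lay above the median gene, with a median of 92.8 per kb of span. Among the IL-6 family ligands, 2 of 7 were above the median gene: Osm, which encodes oncostatin M, at 119 per kb was the highest, and Lif itself reached 63.2. The lowest of those at 1 or more was Il6, at 0.349 per kb. Clcf1 had a baseMean of 0.119 and Cntf was listed at 0.

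Of the 4 other receptor chains, 1 passed the median gene, Il6ra (57.9 per kb), which encodes the IL-6 binding chain. The lowest was Osmr (2.15 per kb), which encodes the chain that pairs with gp130 to bind oncostatin M. Both were below Lifr and Il6st. Jak1, at 67.3 per kb, lay between Jak3 (91.3) and Jak2 (35.0), with Tyk2 at 83.7. On the exon scale, however, Jak1 (1051) was the highest of these 4 kinases, and the next was Jak2 (426). Stat3 was the highest STAT gene on both scales. Per kb of span Stat2, a mediator of interferon signalling, followed at 128, and Stat5a was lowest at 6.03.

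Socs3 was likewise the highest of the SOCS family on both scales, ahead of Socs4 (150 per kb of span) and of Socs7 (546 per kb of exons), and Socs6 was the lowest by span (19.9). All 8 phosphatase and PIAS genes and all 4 adaptor genes passed the median gene. Pias2 was the highest of the former at 428 and Ptpn6, which encodes the phosphatase SHP-1, the lowest at 43.4. Gab1 was the highest adaptor gene at 324 and Sos1 the lowest at 138. Among 9 other STAT3 targets in ES cells, 8 passed the median gene. Mcl1, an anti-apoptotic BCL2 family gene, was the highest at 2925, and Pramel7, at 17.3, was the one that did not pass. Tfcp2l1 and Klf4, transcription factors of the ES cell state, stood at 1261 and 1273 per kb, above each of the 8 genes.

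The marker levels, pooled over all 18 libraries, went with the ES cell label. They cannot show this for each group, since SPT16-depleted and control libraries are averaged together. All 8 ES cell markers were above the median gene, from Esrrb at 401 to Dppa5a at 5779 per kb of span. None of 12 markers of fibroblasts, blood, muscle, liver or neurons was; the highest, the synaptic gene Syp, had 12.1, Postn had a baseMean of 0.118 and Hbb-bt was listed at 0. Supt16 and Ssrp1, the FACT subunit genes, stood at 344 and 358 per kb. Since the degron removes the SPT16 protein and not its RNA, these values do not check the treatment.

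The upstream antisense strand gave a different picture from the genes themselves. PROMPT baseMeans of the 8 genes ran from 0.0549 at Jak1, a value that rests on a single read pair, to 52.2 at Bcl3. A baseMean of 1 or more was reached by 4 of the 8 PROMPTs, beside 33.7% of all 32253, those with no reads included. Among the 43 PROMPTs of the other listed pathway genes, 31 reached a baseMean of 1 or more. The median of the 10875 PROMPTs at that level was 5.29, and 3 of the 8, those of Bcl3, Socs3 and Pim3, exceeded it. Against the 23257 PROMPTs with any reads, whose median was 0.815, 5 of 8 did.

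The Bcl3 PROMPT was the strongest. Its baseMean of 52.2 rested on 405 to 1957 read pairs, ranked 789th in the table and equalled 23.6% of the Bcl3 level per kb of span. The Bcl3 span is overlapped by the annotated antisense genes Gm16175 (2264 bases) and Gm16174 (2073 bases), both on the strand of the PROMPT. Neither overlaps the upstream window taken here. Whether their transcription runs on into that window was not tested. Socs3 followed with a PROMPT of 18.9 (147 to 710 read pairs), 4.52% of its gene level. The Pim3 PROMPT was 7.81 (60.6 to 293 read pairs), or 1.65% of the gene. These 3 genes belong to the inhibitor and target side of the pathway. The fourth, Pim1, had the highest gene level per kb of span but a PROMPT of 2.39 (18.6 to 89.8 read pairs), 0.469% of the gene. The whole upstream window of Pim1 also lies inside the annotated antisense gene Gm26885, on the strand of the PROMPT, so that the count at Pim1 cannot be told apart from that gene's own reads.

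The receptor chains, the kinase and Stat3 all had PROMPTs under a baseMean of 1. This is not a rule for these roles. Among the other listed receptors, JAKs and STATs with a PROMPT value, baseMeans ran from 0 at Osmr and 0.0343 at Jak2 to 6.04 at Jak3 and 7.27 at Stat6. Lifr had 0.967 (7.50 to 36.3 read pairs) and Stat3 0.765 (5.93 to 28.7 read pairs), 0.870% and 0.448% of their gene levels per kb. At Il6st the PROMPT was 0.167. The only combination of up to 6 read pairs that adds up to this value is 4 read pairs from 3 libraries, with an exact 95% Poisson interval of 1.09 to 10.2. At Jak1 it was 0.0549, which equals a single read pair in 1 of the 18 libraries (interval 0.0253 to 5.57). Il6st, the gene with the most reads of the 8, thus had an upstream antisense signal of 0.0547% of its own level per kb, and Jak1 of 0.0817%.

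**Figure D3:**
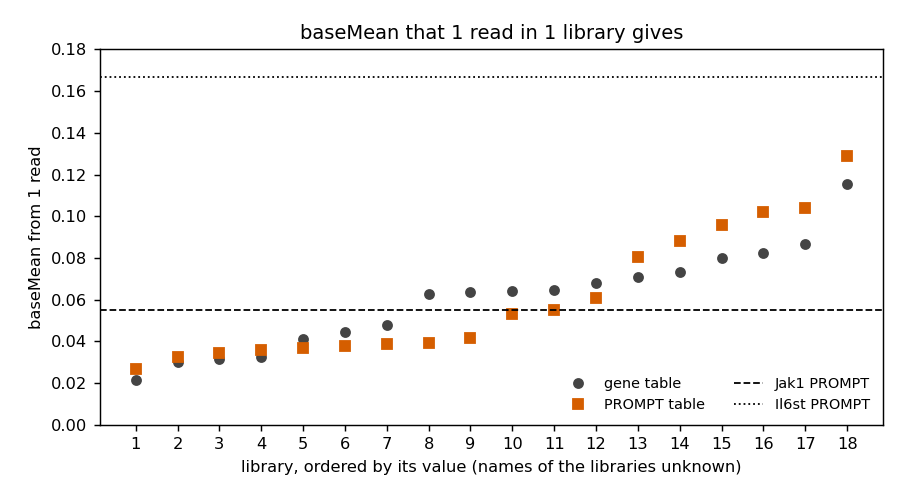
The baseMean that 1 read pair in 1 library gives, for the 18 libraries in order of value (names of the libraries unknown), in the gene table (circles) and the PROMPT table (squares). The dashed line is the Jak1 PROMPT (0.0549), which meets 1 square, and the dotted line the Il6st PROMPT (0.167), above the highest square (0.129).

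Set beside other genes, the low PROMPTs were those of Il6st and Jak1. Over the 12680 pairs of a gene and a PROMPT with at least 1 read pair, PROMPT level was higher where gene level was higher (Spearman's rho 0.537 across genes, which share libraries and are not independent replicates), and the PROMPT was 6.60% of the gene level per kb at the median, with quartiles of 1.53% and 26.2%. For the 8 genes the median was 0.669%, and 5 of the 8 were under 1%, beside 19.7% of all pairs. That median lies between Pim1 (0.469%) and Lifr (0.870%), and both are among the 5. The Pim1 count cannot be told apart from Gm26885, and the Lifr window is far from the RefSeq starts. Both figures for the 8 genes thus lean on values that may not describe those promoters. In the wider pathway, 5 of 40 such pairs were under 1%, with a median of 7.77%. When PROMPTs with no reads were kept, 29.2% of 14395 pairs and 6 of 41 pathway pairs were under 1%, with medians of 4.68% and 7.19%. No test was made of these differences, since the 8 genes are not a sample of replicates.

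Among genes within 1.25-fold of its own level per kb of span whose PROMPT had reads, the Il6st PROMPT lay at percentile 0.751 of 799 genes, whose median PROMPT was 7.89. The Jak1 PROMPT lay at percentile 1.01 of 1233 genes, with a median of 2.42. With PROMPTs at 0 kept (3 genes more for Il6st and 11 for Jak1), the percentiles were 1.12 and 1.89. Stat3 and Pim1, at the 17.4th and 18.4th percentiles, were below the lower quartile of genes of like level, and Lifr, at the 27.2nd, was just above it. With levels per kb of exons, Pim1 moved to the 42.2nd percentile, Pim3 to the 65.9th, Il6st to percentile 4.39 and Jak1 to 0.573. By span, Pim3 was at the 39.8th, Socs3 at the 62.6th and Bcl3 at the 91.8th percentile of genes of like level. The Bcl3 PROMPT thus exceeded the Il6st PROMPT, which rests on 4 read pairs, although the Bcl3 gene was the less transcribed of the pair per kb of span. Per kb of exons the gene levels were close, with 1276 for Bcl3 and 1265 for Il6st, so this contrast holds by span only.

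**Figure D4:**
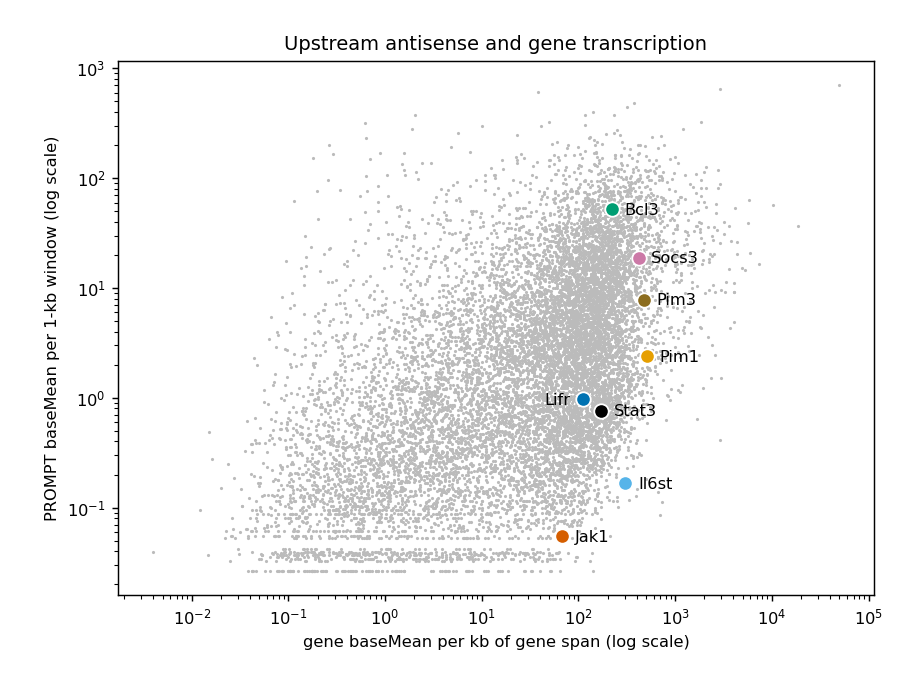
PROMPT baseMean of the 1-kb upstream antisense window against gene baseMean per kb of span, both on log axes, for 12680 pairs of a gene and a PROMPT with reads (grey) and the 8 genes (coloured and named); every value is the mean of all 18 libraries. Il6st and Jak1 lie at the lower edge of the cloud for their gene level, Bcl3 in its upper part.

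The place of the window matters for some of these genes. The windows were taken here as the 1000 bases upstream of the Gencode gene start, since the table gives a symbol but no coordinates. RefSeq places the start within 59 bases of the Gencode one for Il6st, Stat3, Pim3, Bcl3, Pim1 and Jak1. For Socs3 the RefSeq start is 681 bases downstream. For Lifr the nearest RefSeq start is 38958 bases downstream and a further one 49928, so that a window at the Gencode start is far from the promoter RefSeq annotates, and the Lifr PROMPT value may not describe that promoter.

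**Figure D5:**
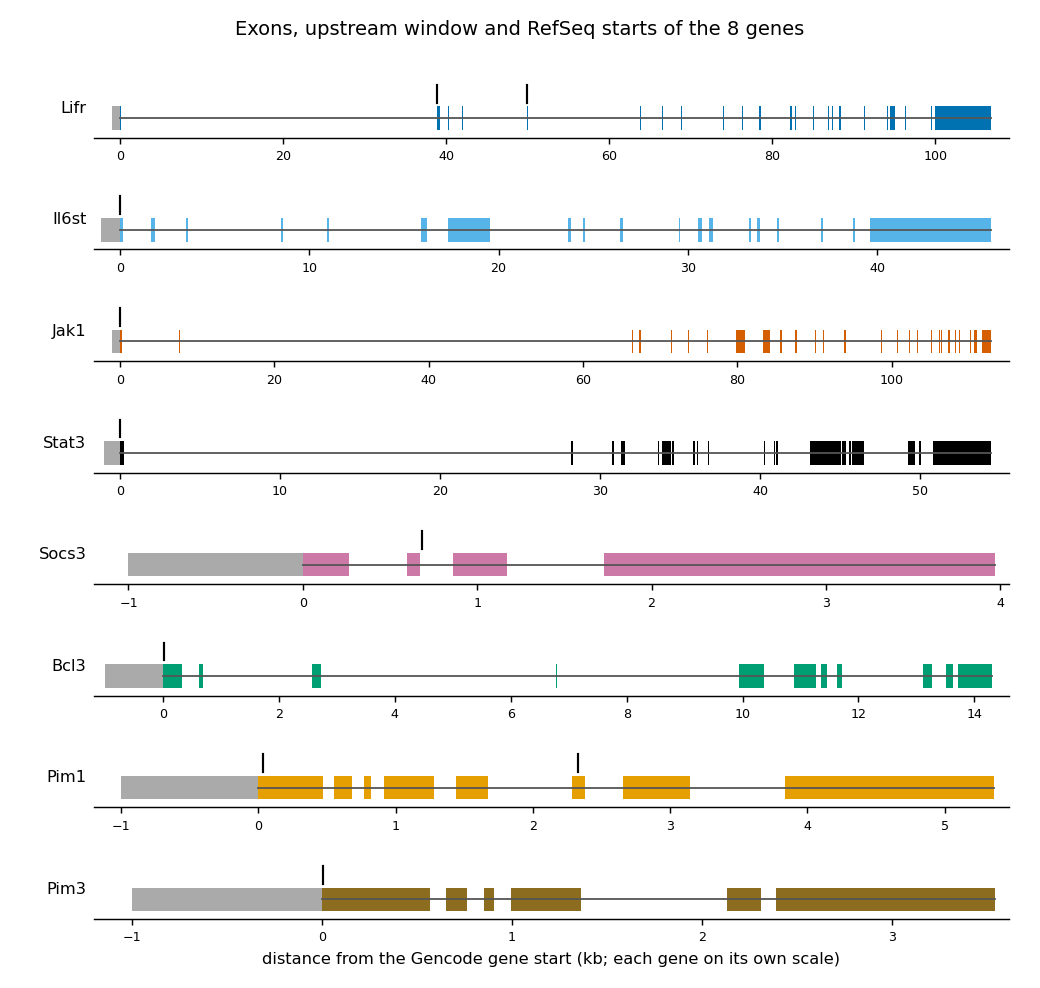
Exons (coloured blocks), the 1-kb upstream window (grey block) and RefSeq starts (black ticks) of the 8 genes, by distance in kb from the Gencode gene start in the direction of transcription; each gene has its own scale. The ticks sit at or near 0 for all but Lifr (38958 and 49928 bases), Socs3 (681 bases) and the second tick of Pim1 (2332 bases).

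The promoters of the genes with the lowest and highest PROMPTs, and of Pim1, are shown to let their sequences be compared with those values. The sequence is that of RefSeq on GRCm38.p6, read 5′ to 3′ in the direction of the gene, and stops before whichever of the Gencode and RefSeq starts is farther upstream. For Jak1, Pim1 and Bcl3 this is the Gencode start, 59, 32 and 15 bases before the RefSeq one. Capitals mark the GC box GGGCGG and the CCAAT box, each on either strand. Il6st is chr13:112463820-112464069 (plus strand, 250 bases), Jak1 chr4:101265283-101265473 (minus strand, 191 bases), Bcl3 chr7:19822771-19823005 (minus strand, 235 bases) and Pim1 chr17:29490535-29490752 (plus strand, 218 bases).
Il6st: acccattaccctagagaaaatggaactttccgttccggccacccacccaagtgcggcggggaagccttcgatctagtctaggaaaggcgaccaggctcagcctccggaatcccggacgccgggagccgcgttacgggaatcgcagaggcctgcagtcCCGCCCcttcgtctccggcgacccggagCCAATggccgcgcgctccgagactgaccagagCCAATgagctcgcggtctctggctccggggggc
Jak1: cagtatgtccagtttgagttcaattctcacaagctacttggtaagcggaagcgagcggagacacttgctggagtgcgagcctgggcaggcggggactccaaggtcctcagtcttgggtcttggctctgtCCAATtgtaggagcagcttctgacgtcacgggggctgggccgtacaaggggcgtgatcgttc
Bcl3: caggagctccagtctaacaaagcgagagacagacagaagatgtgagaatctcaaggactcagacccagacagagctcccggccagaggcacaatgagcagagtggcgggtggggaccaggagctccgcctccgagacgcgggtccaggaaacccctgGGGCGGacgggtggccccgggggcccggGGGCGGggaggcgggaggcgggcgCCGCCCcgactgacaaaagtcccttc
Pim1: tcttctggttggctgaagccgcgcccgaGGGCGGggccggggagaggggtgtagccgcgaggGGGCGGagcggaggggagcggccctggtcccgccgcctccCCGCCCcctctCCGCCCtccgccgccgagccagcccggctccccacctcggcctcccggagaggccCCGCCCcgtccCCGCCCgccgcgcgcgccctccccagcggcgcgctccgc
The Il6st stretch held 1 GC box and 2 CCAAT boxes, and the Jak1 stretch 1 CCAAT box. The Bcl3 stretch held 3 GC boxes and the Pim1 stretch 6, both with no CCAAT box. These counts depend on where the stretches stop. A GC box of Jak1 begins 49 bases before the RefSeq start, between it and the Gencode start. A further one of Pim1 begins 36 bases before the RefSeq start and crosses the Gencode one. Further GC boxes of Il6st have their first bases at -4 and 11 relative to its start. All of these are left out of the printed stretches.

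Over the full RefSeq promoter windows, from 250 bases before the start to 50 after it, all 8 genes held a GC box, beside 35.9% of 27025 promoters. A CCAAT box was present in 4 of 8 (37.9% of promoters) and a TATA box, TATAAA, in 0 of 8 (14.2%). The windows were rich in G and C, from 60.7% at Stat3 to 81.3% at Lifr and Pim1, and lay between the 72.4th and 99.4th percentiles of promoters. The 27025 promoters were not limited to transcribed genes. The share with a GC box among promoters of like G and C content was not computed, so 8 of 8 cannot be read as particular to this pathway. The ratio of observed to expected CpG ran from 0.545 at Stat3 to 1.12 at Pim3.

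STAT dimers bind the palindrome TTCNNNGAA. One promoter of the 8, that of Socs3, held it, beside 8.47% of all promoters. The match lies 154 bases upstream of the RefSeq start, at chr11:117969512-117969520, and is shown in capitals with its flanks (chr11:117969502-117969530, minus strand).
Socs3: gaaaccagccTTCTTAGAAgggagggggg
By Gencode, whose Socs3 start is farther upstream, the match is inside an intron. With a spacer of 4 bases in place of 3, none of the 8 promoters matched (6.99% of all), and with the outer TT and AA alone, TTNNNNNAA, 5 of 8 did (59.4%); the latter motif contains every match of the first. In the 1000-base upstream windows, the Lifr window alone held TTCNNNGAA, beside 28.5% of 17977 such windows. A match is a run of letters and not evidence of binding.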

How the data were processed

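TT-seq libraries of E14 mouse ES cells (18 libraries, 6 groups of 3) were used as deposited. Per the methods, the authors trimmed reads, aligned unique hits to mm10 with STAR, counted read pairs by strand with featureCounts over Gencode vM25 features, and divided counts by DESeq2 size factors. The submitters' processing notes name HTSeq; versions are not given in the sources used here. The deposited baseMean is a normalised signal, the mean over all libraries, in separate gene and PROMPT tables (normalized separately, with scales 1.02-fold apart by their steps). The tables' other columns hold the authors' own fold changes, errors and p-values of SPT16-depleted against control libraries, and were not used. No counts per library were in the tables used, so the planned test between conditions was not run. The ncRNA and eRNA tables were not used here.

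Here, baseMean was divided by Gencode vM21 (GRCm38) span or exon length, since vM25 was not in hand, and ranked within the set whose baseMean was 1 or more. Of 21859 genes, 21817 had a span. Read pairs were bounded by the values that single read pairs give, sought as steps below 0.2. Their number was set to 18 in each table, that of the libraries. On simulated pooled means of 18 libraries, with that number also given, 18 of 18 steps were recovered. A PROMPT over gene level was the PROMPT baseMean per 1 kb over the gene baseMean per kb. Motifs were searched on both strands in the RefSeq promoter table. All 8 genes were described, and of each list of other pathway genes the highest and lowest, with Lif, Tyk2, Socs7, Tfcp2l1 and Klf4 named after their values were seen. The 8 genes and the lists were chosen with earlier results of these data known. The GC, CCAAT and TATA boxes and the windows of like gene level were chosen after seeing the data. Python 3 scripts used pandas and numpy.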

Additional observations from a re-analysis of the deposited data

How the results depend on the processing

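The count of 8 genes above the median gene held with exon length, with no division by length, and against backgrounds of baseMean above 0 or of 10 and more. It was not rerun with spans limited to windows that occur once, which were computed for the 8 genes alone. Of the order per kb of span, 8 places stayed with such spans, 0 with exon length and 1 with no division. The ratio of highest to lowest gene was 7.59, and 2.22 with exon length. Of the PROMPTs, 3 exceeded the median of PROMPTs at a baseMean of 1 or more, 5 that of PROMPTs above 0 and 1 that of PROMPTs at 10 or more. The median PROMPT over gene level, 0.669%, became 0.191% with exon length, by construction. STAT motifs were in 1 promoter, in 0 with a spacer of 4 and in 5 with the outer bases alone. Within 1.5-fold in place of 1.25-fold of gene level, alternatives added after seeing the data, the 8 PROMPT percentiles stayed within 1.5 times of their values. With PROMPTs at 0 kept, that of Jak1 became 1.89 and the other 7 stayed within 1.5 times. By exon length the PROMPT percentiles moved past that for Il6st (4.39), Jak1 (0.573), Pim1 (42.2) and Pim3 (65.9).

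No paired analysis was possible because the values used are means over all libraries, with no value per library; for the same reason no library was left out, no replicate block was fitted and no batch was examined. Depth limits the low PROMPT values. The Poisson intervals of Jak1 (0.0253 to 5.57 read pairs) and Il6st (1.09 to 10.2) overlap, so the order of these 2 was not detectable at this depth, and the SD from counting was at most 41.1% of the value at Stat3 and 36.5% at Lifr.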
